A study of Mus musculus with 8 samples.

Results

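The genes of MHC class I antigen presentation were examined in bone marrow-derived macrophages (BMDMs). The 10 genes, taken by name from the 23761 genes of the deposited expression table, are B2m, the heavy chain genes H2-K1, H2-D1, H2-Q4 and H2-T23, the peptide loading genes Tap1, Tap2 and Tapbp, the peptidase gene Erap1 and the regulator gene Nlrc5. Total RNA was sequenced from BMDMs of 4 LysM mice and 4 K2KO mice at 3 months of age. The control mice were LysM Cre/Cre, and the K2KO mice were LysM Cre/Cre with KLF2 flox/flox, so both groups carried Cre recombinase under the lysozyme M promoter and differed in the floxed Klf2 alleles that Cre deletes in myeloid cells. Marrow was cultured for 6 days in DMEM with L929 fibroblast-conditioned medium and then replated, and the labels mark every sample as vehicle. Expression was given as FPKM, in which the fragments of a gene are divided by the length of its transcript and by the mapped fragments of the library, so that levels can be set side by side between genes. All 10 genes were among the 10920 genes with a mean of at least 1 FPKM that were tested.

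The libraries are called LysM0 to LysM3 and K2KO0 to K2KO3, after the number that ends each column name. These numbers run from 0 where the sample labels run from 1, so a column gives the genotype but not the mouse. Klf2, the targeted gene, was at 44.1, 52.9, 64.7 and 72.8 FPKM in LysM0 to LysM3 and at 45.5, 41.6, 59.2 and 59.3 FPKM in K2KO0 to K2KO3. The groups overlapped, and the log2 fold change was -0.18 ± 0.17 (SE, adjusted p = 0.46 by limma). Since the transcript of the targeted gene did not separate the groups, the second group is called the libraries labelled K2KO, and every direction below rests on that label. The macrophage markers Cd68 (1834 ± 128.8 FPKM in LysM and 1779 ± 103.7 FPKM in the libraries labelled K2KO, SD, n = 4 each), Csf1r (523.6 ± 15.5 and 526.1 ± 53.2 FPKM) and Adgre1 (432.8 ± 62.3 and 439.6 ± 68.6 FPKM) were abundant in both groups. These are bulk libraries, in which fewer cells of a type and less RNA per cell cannot be told apart.

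MHC class I molecules display peptides from inside the cell to CD8+ T cells. A polymorphic heavy chain pairs with the invariant light chain beta-2 microglobulin, the product of B2m. Peptides cut by the proteasome enter the endoplasmic reticulum through the TAP transporter, are trimmed by ERAP1 and are loaded onto the heavy chain with the help of tapasin, the product of Tapbp. Interferons raise many of these genes, and NLRC5 acts at an SXY module in class I promoters that is also bound by RFX, CREB/ATF and NF-Y factors.

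The promoters of class I genes are shown because most of the 10 genes moved together from library to library, as described below. RefSeq promoter windows (250 bases before to 50 bases after a gene's start, build GRCm38.p6) were found for 8 of the 10 genes, all but Tap2 and Nlrc5. Both strands were searched for GGGNNTTCC (kappa B), for GAAANNGAA and GAANNGAAA (the cores of the interferon-stimulated response element, which overlap each other in part), for TGACG (the core of the X2 box), for ATTGG (the Y box, read as CCAAT on the other strand) and for CCNCNCCC (the Klf and Sp1 type). The stretches run 5′ to 3′ on the gene's strand and end before the annotated start. Capitals mark these motifs other than CCNCNCCC. H2-K1 lies at chr17:34000354-34000463 (minus strand, 116 to 7 bases before the start), H2-Q4 at chr17:35379439-35379571 (plus strand, 178 to 46 bases before the start) and B2m at chr2:122147543-122147643 (plus strand, 144 to 44 bases before the start).
H2-K1: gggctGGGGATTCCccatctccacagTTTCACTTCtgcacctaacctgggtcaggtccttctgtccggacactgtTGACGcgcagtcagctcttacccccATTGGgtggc
H2-Q4: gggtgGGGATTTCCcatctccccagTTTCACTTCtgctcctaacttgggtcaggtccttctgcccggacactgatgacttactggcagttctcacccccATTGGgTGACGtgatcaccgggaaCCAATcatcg
B2m: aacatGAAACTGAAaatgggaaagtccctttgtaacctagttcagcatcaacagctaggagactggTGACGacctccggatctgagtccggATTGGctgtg
GGGNNTTCC was in the windows of H2-K1, H2-D1 and H2-Q4 and in 5.82% of all 32851 promoter windows. The same 3 genes held GAANNGAAA (7.52% of all windows), while B2m, H2-T23 and Erap1 held GAAANNGAA (8.56%). TGACG was found in B2m, H2-K1, H2-D1, H2-Q4 and Tap1 (20.8%), and ATTGG in each of the 8 windows except that of Erap1 (37.4%). In H2-K1, H2-D1 and B2m, TGACG began 25 bases before ATTGG. In H2-Q4, the letters that begin 25 bases before ATTGG read tgact, which the search does not match. The TGACG marked there began 6 bases after ATTGG, so it is a match at another position. CCNCNCCC was in 6 of the 8 windows, all but B2m and Erap1, and in 49.5% of all windows. A match of letters describes the sequence and is not a measured binding site. Other spellings of these motifs, such as longer kappa B forms, were not searched. A window without a match, that of B2m included, is therefore not shown to lack such a site.

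Of the 10 class I presentation genes, H2-Q4 and Erap1 were higher in the libraries labelled K2KO, and the other 8 genes did not pass the test. The genotypes were compared with limma on log2(FPKM + 0.1), and p-values were adjusted over the 10920 tested genes (Benjamini-Hochberg). A gene was called differentially expressed when its adjusted p was under 0.05 and its log2 fold change was beyond 0.26 in either direction. The 2 of 10 genes called compare with 18.4% of all tested genes (9.84% called higher and 8.61% called lower). The groups did not overlap for 2 of the 10 genes, B2m and Erap1, and for 23.1% of all tested genes. With quantile normalization 5 of the 10 genes were called, B2m, H2-K1 and H2-D1 being the additional ones, beside 14.2% of all tested genes. It also raised the log2 fold changes of abundant genes described below, such as Vamp8 (-0.33 to -0.14) and Ifi30 (-0.42 to -0.25). That of Lnpep, a gene of low level, went down from 0.53 to 0.42. Whether the additional calls are particular to class I genes was not tested. In the reported fit, the median log2 fold change was 0.10 over the 10 genes, 7 of which had the higher mean in the libraries labelled K2KO, and 0.01 over all tested genes.

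**Figure D1:**
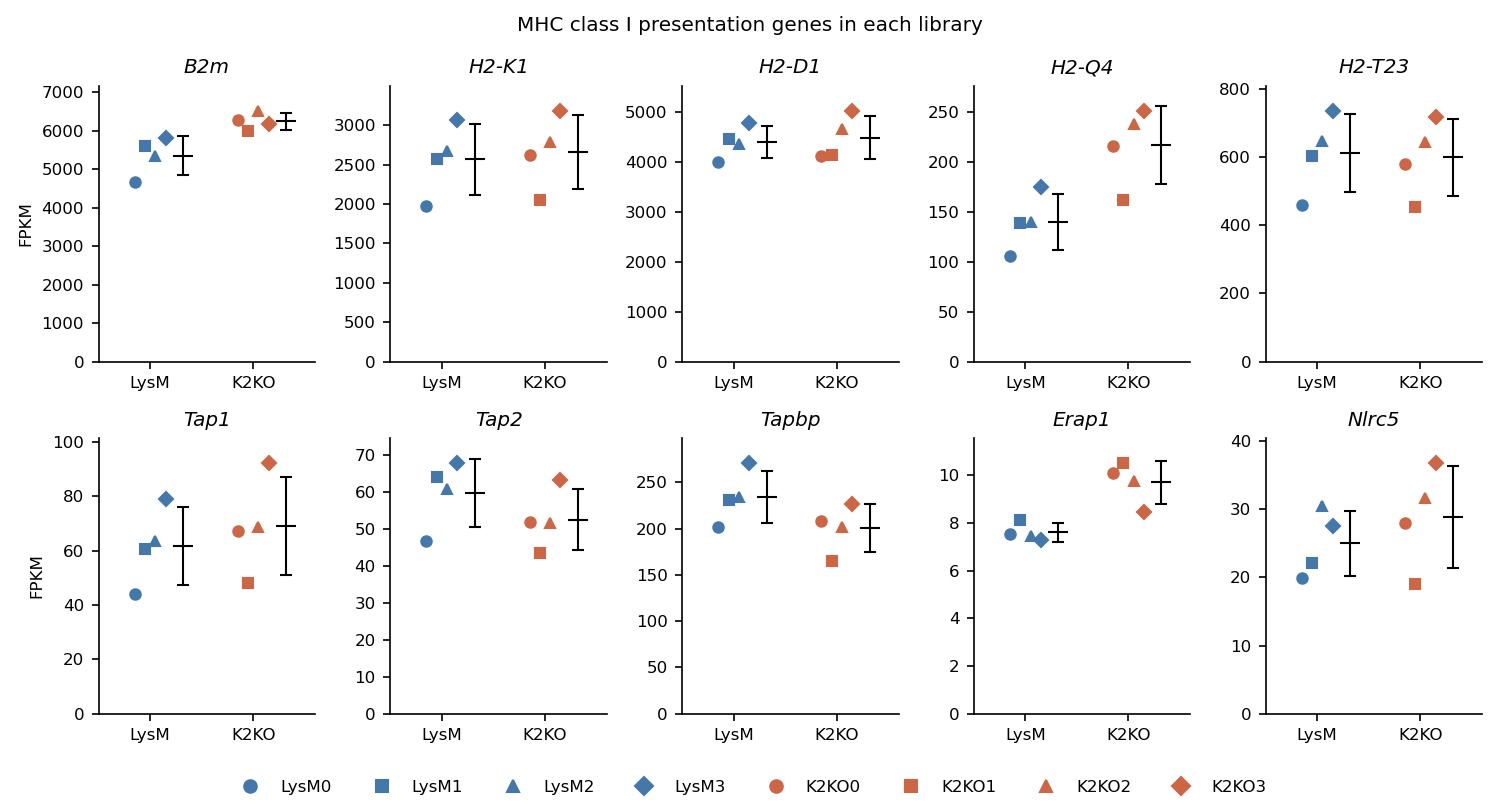
FPKM of each of the 10 class I presentation genes in each library (points, with LysM in blue and K2KO in orange and a symbol for each library number), with the mean and SD of the 4 libraries of a group as the black bar. For B2m and Erap1 every K2KO point lies above every LysM point, and for most other genes LysM0 and K2KO1 are the lowest points and LysM3 and K2KO3 the highest points of their groups.

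B2m, the light chain shared by all class I molecules (chromosome 2, 122147686 to 122153083, plus strand, GRCm38), was the most abundant of the 10 transcripts. Its expression was 4665, 5603, 5341 and 5802 FPKM in LysM0 to LysM3 and 6279, 5988, 6508 and 6172 FPKM in K2KO0 to K2KO3. All of the libraries labelled K2KO were above all of the LysM libraries. The group means were 5353 ± 495.7 and 6237 ± 217.0 FPKM (SD, n = 4 each). The log2 fold change was 0.23 (95% interval 0.03 to 0.42), with an adjusted p of 0.0965 by limma, so B2m was not called. The exact two-sided permutation test over the 8 libraries gave p = 0.0286, the smallest value that 4 against 4 allows. B2m passed both thresholds under quantile normalization (log2 fold change 0.33, adjusted p = 0.00794 by limma) and with the libraries scaled to equal summed FPKM (0.39, adjusted p = 0.00824 by limma). The latter scaling put the median log2 fold change of all tested genes at 0.18. B2m was called in these 2 of 12 alternative settings and in 0 of the 8 omissions of a single library. Corrected for GC content and length, its log2 fold change was 0.16 (adjusted p = 0.145 by limma).

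The classical heavy chains H2-K1 and H2-D1 bind peptides for CD8+ T cells and made up most of the heavy chain signal. H2-K1 (chromosome 17, 33996017 to 34000347, minus strand) was at 1975, 2570.5, 2674 and 3062 FPKM in LysM0 to LysM3 and at 2616, 2053, 2789 and 3179 FPKM in K2KO0 to K2KO3. H2-D1 (chromosome 17, 35262730 to 35267499, plus strand) was at 3992, 4464, 4361 and 4783 FPKM in the LysM libraries and at 4119, 4140.1, 4661 and 5019 FPKM in those labelled K2KO. For both genes the groups overlapped over nearly their whole range, with LysM0 the lowest library. The log2 fold change of H2-K1 was 0.05 (95% interval -0.32 to 0.41, adjusted p = 0.847 by limma). The log2 fold change of H2-D1 was 0.03 (95% interval -0.19 to 0.24, adjusted p = 0.866 by limma). These values were above 0 under each scaling, and both genes were called with quantile normalization alone, at 0.40 for H2-K1 (adjusted p = 0.025 by limma) and 0.28 for H2-D1 (adjusted p = 0.0183 by limma). H2-K1 and H2-D1 together gave 6970 ± 770.1 FPKM in LysM and 7144 ± 871.1 FPKM in the libraries labelled K2KO.

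H2-T23, which encodes the nonclassical molecule Qa-1 that NK cell receptors read (chromosome 17, 36029773 to 36032855, minus strand), was at 460.0, 603, 647 and 734 FPKM in LysM0 to LysM3. It was at 579, 453, 645 and 718 FPKM in K2KO0 to K2KO3, inside almost the same range. The log2 fold change was -0.03 (95% interval -0.41 to 0.35, adjusted p = 0.913 by limma), and its sign turned under quantile normalization (0.18), equal summed FPKM (0.14) and a fit corrected for GC content and length (0.04). Equal summed FPKM moved all genes alike, to a median log2 fold change of 0.18, so the turn under it is not particular to H2-T23.

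H2-Q4 belongs to the H2-Q genes, a group of nonclassical class I genes (chromosome 17, 35379617 to 35385290, plus strand). It was at 106, 139, 139 and 175 FPKM in LysM0 to LysM3 and at 215, 162, 237 and 251 FPKM in K2KO0 to K2KO3. The groups overlapped in a single library, since K2KO1 was below LysM3. The means were 139.7 ± 28.1 and 216.3 ± 39.0 FPKM (SD, n = 4 each), and the log2 fold change was 0.63 (95% interval 0.25 to 1.02, adjusted p = 0.0327 by limma). The exact two-sided permutation test gave p = 0.0571. H2-Q4 lost the call when LysM1, LysM2, K2KO0, K2KO2 or K2KO3 was left out, with log2 fold changes of 0.51 to 0.77 over the 8 omissions.

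H2-Q5, H2-Q6 and H2-Q7, neighbours of H2-Q4 among the H2-Q genes, had higher means in the libraries labelled K2KO as well. H2-Q6 was at 18.3, 34.6, 32.6 and 48.6 FPKM in the LysM libraries and at 66.7, 39.0, 76.6 and 85.3 FPKM in those labelled K2KO, with a log2 fold change of 1.02 ± 0.31 (SE, adjusted p = 0.0476 by limma). H2-Q5 was at 6.43, 8.43, 8.58 and 12.2 FPKM in LysM and at 17.8, 12.2, 16.5 and 19.5 FPKM in the libraries labelled K2KO, with a log2 fold change of 0.90 ± 0.20 (adjusted p = 0.0191 by limma). H2-Q7 was at 27.8, 53.2, 60.6 and 88.6 FPKM in LysM and at 116, 57.7, 121 and 142 FPKM in those labelled K2KO. It was not called (log2 fold change 0.96 ± 0.37, adjusted p = 0.0879 by limma). In each of these genes K2KO1 was the library labelled K2KO that fell within the LysM range. Summed over the 7 listed H2-Q genes, expression was 240.0 ± 67.8 FPKM in LysM and 409.1 ± 97.9 FPKM in the libraries labelled K2KO, a ratio of 1.7, with overlapping groups. These genes are near-identical in places, so reads could be divided among them in more than 1 way. Of the 50-base windows of the longest transcript, 22% in H2-Q4, 35.4% in H2-Q5, 32% in H2-Q6 and 28.4% in H2-Q7 recur in another gene, against 8.1% in H2-K1, 14.3% in H2-D1, 15% in H2-T23 and none in B2m. Such sharing is not particular to the H2-Q genes, since the share was 35.8% in H2-T22.

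Of the 23 heavy chain genes listed beside the 4 above, 16 were found in the table and 9 were tested. Not all of the 16 are annotated as protein-coding. H2-Q5, H2-T10 and H2-Bl are annotated as polymorphic pseudogenes and H2-K2 as a transcribed pseudogene. H2-Q5, H2-Q6 and H2-M2 rose (33.3%, beside 9.84% called higher among all tested genes), none fell, and the median log2 fold change over the 9 was 0.40. With all libraries kept, H2-Q5 was called in 11 of 12 alternative settings, H2-Q6 in 6 and H2-M2 in 8, and over the 8 omissions of a single library they were called in 5, 1 and 2. H2-M2, a gene of the H2-M region at the edge of detection, was at 1.19, 0.531, 0.47 and 0.948 FPKM in LysM and at 2.33, 3.19, 1.70 and 1.20 FPKM in the libraries labelled K2KO. Its groups did not overlap, by a margin of 1.19 against 1.20 FPKM, and its log2 fold change was 1.32 ± 0.35 (adjusted p = 0.0309 by limma), which was 0.78 with a pseudocount of 1. H2-T22, a ligand of some gamma-delta T cell receptors, was at 70.9 ± 16.5 FPKM in LysM and 93.0 ± 17.8 FPKM in those labelled K2KO (log2 fold change 0.40 ± 0.19, adjusted p = 0.16 by limma). Of its 50-base windows 32.0% recur in H2-T10, so reads could be divided between them in more than 1 way. The log2 fold change of H2-T10 was 0.04 (adjusted p = 0.911 by limma). Summed over the 20 listed heavy chain genes, expression was 7971 ± 975.8 FPKM in LysM and 8327 ± 1094 FPKM in the libraries labelled K2KO, a log2 ratio of 0.06 with overlapping groups (exact two-sided permutation test, p = 0.657). That ratio turned to -0.02 without LysM0 and to -0.01 without K2KO3, and it was 0.33 with quantile normalization (exact permutation p = 0.0286). B2m stood at 0.674 ± 0.029 of the summed heavy chains in LysM and at 0.757 ± 0.0875 in the libraries labelled K2KO, again with overlapping groups.

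**Figure D2:**
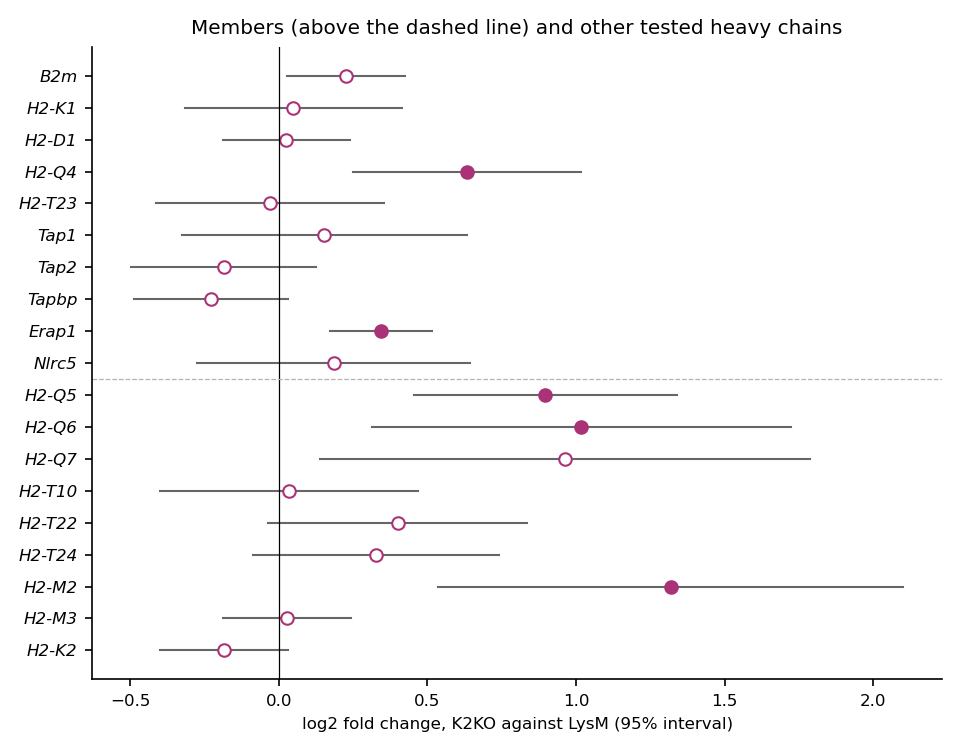
Log2 fold change, libraries labelled K2KO against LysM, with its 95% interval from limma for the 10 class I presentation genes (above the dashed line) and the 9 other tested heavy chain genes (below it), where filled points were called differentially expressed. H2-Q4 at 0.63, H2-Q5 at 0.90, H2-Q6 at 1.02 and H2-M2 at 1.32 lie to the right of H2-K1 at 0.05 and H2-D1 at 0.03, whose intervals include 0.

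The genes of peptide transport and loading differed in direction and none was called. Tap1, a subunit of the TAP transporter (chromosome 17, 34187553 to 34197225, plus strand), was at 44.0, 60.7, 63.5 and 79.0 FPKM in LysM0 to LysM3 and at 67.3, 48.2, 68.7 and 92.2 FPKM in K2KO0 to K2KO3. Tap2, the partner subunit (chromosome 17, 34203527 to 34216321, plus strand), was at 46.7, 64.0, 61.0 and 67.8 FPKM in LysM and at 52.0, 43.4, 51.6 and 63.3 FPKM in the libraries labelled K2KO. Tapbp, which encodes tapasin, the bridge between TAP and the heavy chain (chromosome 17, 33915899 to 33929292, plus strand), was at 202, 231, 234 and 270.4 FPKM in LysM and at 208, 165, 201 and 227 FPKM in the libraries labelled K2KO. All 3 genes overlapped between the groups, with LysM0 and K2KO1 the lowest libraries of their groups in each. The log2 fold changes were 0.15 for Tap1 (95% interval -0.33 to 0.63, adjusted p = 0.622 by limma), -0.19 for Tap2 (-0.50 to 0.13, adjusted p = 0.347) and -0.23 for Tapbp (-0.49 to 0.03, adjusted p = 0.177). Their signs held under each of the 3 scalings tried, and over the settings with all libraries Tap1 ranged from 0.13 to 0.32, Tap2 from -0.21 to -0.02 and Tapbp from -0.25 to -0.04. Over the omissions of a single library Tap1 ranged from 0.00 to 0.31, Tap2 from -0.30 to -0.10 and Tapbp from -0.30 to -0.14. Tapbp shares 3422 bases on the same strand with Zbtb22 (mean 18.8 FPKM), and Tap1 shares 212 bases with Psmb9 on the other strand. The study used a stranded library kit, while the strand setting of the quantification is not given in the sources used here.

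Of 16 further genes of peptide loading, folding and quality control in the endoplasmic reticulum, 1 fell (6.25%, beside 8.61% called lower among all tested genes), none rose, and the median log2 fold change was 0.01. Sec61b, a subunit of the translocon, fell from 141.6 ± 7.67 FPKM in LysM to 115.3 ± 12.0 FPKM in those labelled K2KO (log2 fold change -0.30 ± 0.08, adjusted p = 0.0336 by limma). It was called in 6 of the 12 settings and 2 of the 8 omissions, and its log2 fold change was -0.16 with quantile normalization, -0.13 with equal summed FPKM and -0.08 with the correction for GC content and length. The chaperones of the loading complex were close in both groups. Calr, which encodes calreticulin, was at 207.9 ± 16.6 and 208.7 ± 21.2 FPKM, and Pdia3, which encodes ERp57, was at 142.7 ± 15.3 and 140.5 ± 8.02 FPKM. Bcap31, a membrane chaperone of the endoplasmic reticulum, was at 181.5 ± 7.15 FPKM in LysM and 164.9 ± 12.9 FPKM in the libraries labelled K2KO without passing the test (adjusted p = 0.179 by limma). Hspa5, which encodes BiP, was at 178.5 ± 13.3 and 166.4 ± 16.6 FPKM.

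Erap1, the aminopeptidase that trims peptides in the endoplasmic reticulum (chromosome 13, 74639568 to 74693201, plus strand), was the least abundant of the 10 genes. Its expression was 7.55, 8.15, 7.46 and 7.27 FPKM in LysM0 to LysM3 and 10.11, 10.5, 9.75 and 8.46 FPKM in K2KO0 to K2KO3. All of the libraries labelled K2KO were above all of the LysM libraries, with K2KO3 the nearest to them. The means were 7.61 ± 0.38 and 9.71 ± 0.888 FPKM (SD, n = 4 each), and the log2 fold change was 0.34 (95% interval 0.17 to 0.52, adjusted p = 0.0197 by limma). The exact two-sided permutation test gave p = 0.0286. Corrected for GC content and length within each library, the log2 fold change was 0.13 (adjusted p = 0.184 by limma) and Erap1 was not called. It also lost the call when LysM3, K2KO0, K2KO1 or K2KO2 was left out, with log2 fold changes of 0.305 to 0.408 over the 8 omissions. Across all tested genes, the log2 fold change correlated with GC content at a Spearman rho of -0.4, a correlation across genes, which are not independent replicates.

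Other peptidases cut or destroy class I peptides in the cytosol and in endosomes. Of 10 such genes, Lnpep, Dpp8 and Tpp2 rose and none fell (30.0%, beside 9.84% called higher among all tested genes), and the median log2 fold change was 0.13. Lnpep, the endosomal aminopeptidase IRAP, was at 1.69, 2.01, 1.98 and 1.68 FPKM in LysM and at 2.94, 3.00, 2.88 and 2.06 FPKM in those labelled K2KO (log2 fold change 0.53 ± 0.14, adjusted p = 0.0302 by limma). Dpp8, a cytosolic dipeptidyl peptidase, was at 9.90 ± 0.592 and 13.1 ± 1.52 FPKM (0.40 ± 0.09, adjusted p = 0.0203 by limma). Tpp2, the tripeptidyl peptidase that acts after the proteasome, was at 7.999 ± 0.769 and 10.14 ± 1.01 FPKM (0.34 ± 0.09, adjusted p = 0.0354 by limma). In Lnpep and Dpp8, as in Erap1, the groups did not overlap and K2KO3 was the lowest library labelled K2KO. The abundant Npepps, which encodes a puromycin-sensitive aminopeptidase, was at 30.0 ± 1.23 and 31.6 ± 2.04 FPKM and did not pass the test (adjusted p = 0.426 by limma). Nor did Nrd1, an endopeptidase, at 20.7 ± 0.99 and 22.2 ± 1.59 FPKM, or Blmh, which encodes bleomycin hydrolase, at 15.2 ± 0.838 and 13.2 ± 1.04 FPKM (log2 fold change -0.20 ± 0.07, adjusted p = 0.0778 by limma). Lnpep and Tpp2 were each called in 7 of the 12 settings and 2 of the 8 omissions, and Dpp8 in 9 and 3. With the correction for GC content and length the log2 fold changes of Lnpep, Tpp2 and Dpp8 were 0.26, 0.064 and 0.23, and none of them was called.

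The 9 tested proteasome genes were not called in either direction, beside 18.4% of all tested genes. The 6 genes of the immunoproteasome and its activator had a median log2 fold change of -0.23. Psmb8, an interferon-induced catalytic subunit, was at 151.0 ± 23.9 FPKM in LysM and 164.2 ± 28.1 FPKM in the libraries labelled K2KO. Psmb10, another such subunit, was at 104.2 ± 16.0 and 81.8 ± 14.5 FPKM (log2 fold change -0.35 ± 0.14, adjusted p = 0.104 by limma). Psme1, a subunit of the PA28 activator, was at 189.3 ± 33.3 and 149.8 ± 34.7 FPKM (-0.35 ± 0.18, adjusted p = 0.176 by limma). Among the 3 constitutive catalytic subunits, Psmb5 was at 149.4 ± 5.02 and 127.2 ± 11.3 FPKM with no overlap, and its log2 fold change of -0.23 ± 0.07 was within the fold threshold although its adjusted p was 0.0493 by limma. The groups overlapped for Psmb6, at 295.4 ± 6.64 and 274.1 ± 26.2 FPKM (-0.11 ± 0.08, adjusted p = 0.297 by limma). They also overlapped for Psmb7, at 79.98 ± 2.66 and 74.88 ± 6.58 FPKM (-0.10 ± 0.07, adjusted p = 0.339 by limma). Psmb10 was called with the replicate block and without LysM0 or K2KO3, Psme1 and Psmb5 were called without K2KO3, and each was lower in the libraries labelled K2KO.

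Nlrc5, the transactivator of class I genes, lies on chromosome 8 (94434356 to 94527272, plus strand), 22.1 Mb from Klf2. It was at 19.9, 22.2, 30.4 and 27.5 FPKM in LysM0 to LysM3 and at 27.9, 19.0, 31.6 and 36.7 FPKM in K2KO0 to K2KO3. The groups overlapped, and K2KO1 was the lowest of all 8 libraries. The log2 fold change was 0.18 (95% interval -0.27 to 0.64, adjusted p = 0.53 by limma), with a range of 0.11 to 0.35 over the settings with all libraries and of 0.05 to 0.37 over single omissions, and no call in any of them. Of 23 other regulators of class I genes, 22 were tested and none was called, beside 18.4% of all tested genes, and the groups of 5 did not overlap (22.7%, beside 23.1% of all tested genes). Their median log2 fold change was -0.04. Irf5, the most abundant of them and an activator of inflammatory genes, was at 212.6 ± 4.47 FPKM in LysM and 181.7 ± 7.03 FPKM in the libraries labelled K2KO, with no overlap (log2 fold change -0.23 ± 0.06, adjusted p = 0.0252 by limma, within the fold threshold). Irf7, a regulator of interferon genes, was at 189.5 ± 57.5 and 174.5 ± 52.6 FPKM, and Irf8, a myeloid regulator, was at 105.9 ± 5.20 and 100.2 ± 2.65 FPKM.

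The class I genes varied in a shared order between libraries of the same genotype. LysM0 was the lowest LysM library in 9 of the 10 genes, and LysM3 was the highest in 8. K2KO1 was the lowest library labelled K2KO in 8 genes, and K2KO3 was the highest in 8. Over all tested genes, LysM0 was lowest in 35.3%, LysM3 highest in 22.6%, K2KO1 lowest in 23.7% and K2KO3 highest in 29.5%. After the mean of each genotype was taken away, H2-K1 correlated with H2-T23 at 1.00, with Tap1 at 0.99 and with H2-Q4 at 0.98 (Pearson, log2 scale, 8 libraries), although H2-Q4 was called by genotype and H2-K1 was not. Erap1 was the exception, with correlations from -0.02 with B2m to -0.75 with Nlrc5. B2m followed the others less closely, from 0.49 with Nlrc5 to 0.81 with H2-Q4. These correlations are a description, and the points share the library's scaling and composition.

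The same libraries stood out in a list of interferon-induced genes that holds none of the 10. Of its 24 genes 22 were tested, none was called, beside 18.4% of all tested genes, and the median log2 fold change was -0.11. Their summed FPKM was 1463, 2235, 2589.5 and 2866 in LysM0 to LysM3 and 1954, 1091, 1967 and 2201 in K2KO0 to K2KO3, so the groups overlapped. LysM0 was the lowest LysM library and K2KO1 the lowest library labelled K2KO in 22 of 22 genes. Bst2, which encodes the antiviral protein tetherin and is the most abundant gene of the list, was at 685, 1035, 1221.5 and 1319.9 FPKM in LysM and at 744, 436, 773 and 949.8 FPKM in those labelled K2KO (log2 fold change -0.57 ± 0.26, adjusted p = 0.146 by limma). It was called in 0 of the 12 settings and in 1 of the 8 omissions of a single library, that of LysM0. Rtp4, another interferon-induced gene, was at 203.2 ± 53.2 and 184.8 ± 47.2 FPKM, and Oasl2, of the oligoadenylate synthetase family, was at 128.9 ± 31.7 and 125.9 ± 30.9 FPKM.

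The mean log2 level of that list was set against each of the 10 genes over the 8 libraries, with exact two-sided permutation tests adjusted over the 10 relations. H2-T23 correlated with it at a Pearson r of 0.97 (exact permutation p = 0.000446, adjusted p = 0.00446) and a Spearman rho of 0.93 (exact permutation p = 0.00223, adjusted p = 0.0223). H2-K1 correlated at r = 0.95 (exact permutation p = 0.00169, adjusted p = 0.00843) and rho = 0.88 (exact permutation p = 0.00724, adjusted p = 0.0357). For Tap1, r was 0.90 (exact permutation p = 0.00337, adjusted p = 0.00918) and rho was 0.86 (exact permutation p = 0.0107, adjusted p = 0.0357). Without LysM0 and K2KO1, the libraries farthest from the median of the list, r was 0.86 for H2-T23, 0.80 for H2-K1 and 0.70 for Tap1 over the remaining 6. Tap2, Tapbp and Nlrc5 had r of 0.85, 0.82 and 0.85, with adjusted exact permutation p of 0.00963, 0.00918 and 0.00963 but adjusted p of 0.0735, 0.0735 and 0.116 for rho, and without those libraries r was 0.49, 0.68 and 0.48. H2-D1 had r = 0.74 (exact permutation p = 0.0376, adjusted p = 0.0537). For B2m and H2-Q4, r was 0.41 and 0.53 over all libraries, and without LysM0 and K2KO1 it was -0.09 and 0.16. Once the genotype means were removed, r over all libraries was 0.76 for B2m and 0.97 for H2-Q4. Erap1 had a negative r of -0.34 (exact permutation p = 0.407). Within a genotype there are 4 libraries, too few for a correlation, so the within-genotype relation is given by the centred values alone, which were 0.97 for H2-K1, H2-Q4 and H2-T23.

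**Figure D3:**
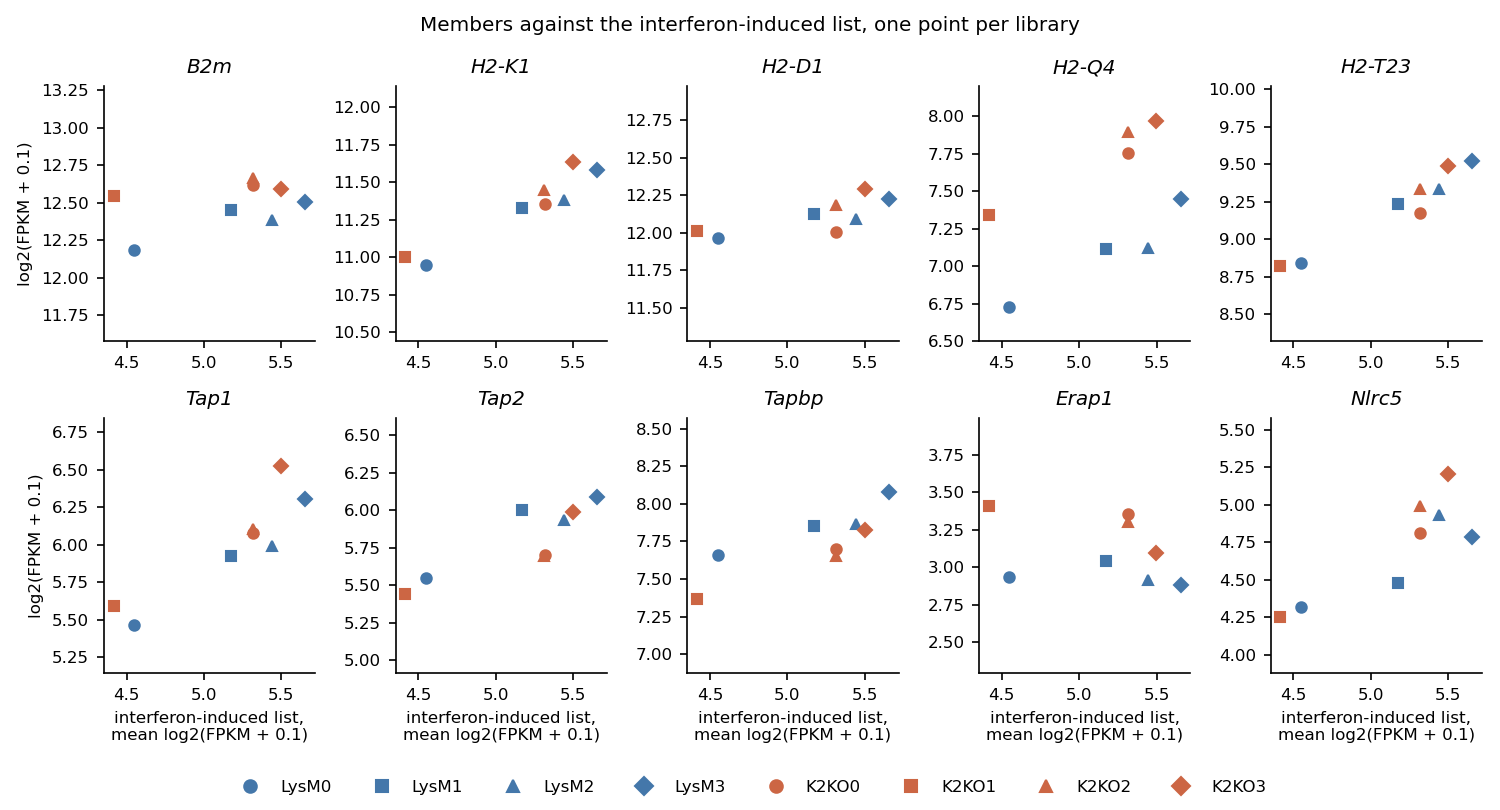
Level of each of the 10 class I presentation genes, as log2(FPKM + 0.1), against the mean log2(FPKM + 0.1) of the 22 tested interferon-induced genes, with 1 point per library, LysM in blue and K2KO in orange, and axes spanning the same number of log2 units in every panel. The points of H2-K1, H2-T23 and Tap1 rise together in both groups, those of H2-Q4 form a K2KO series above a LysM series, and Erap1 does not rise.

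With that list level added to the fit as a covariate, an alternative chosen after seeing the data, 22.2% of all tested genes were called. H2-Q4 had a log2 fold change of 0.67 (adjusted p = 0.000744 by limma) and Erap1 of 0.34 (adjusted p = 0.0112), and no further class I gene of the 10 was called. B2m at 0.24 (adjusted p = 0.0316 by limma) and Tapbp at -0.20 (adjusted p = 0.0268) were within the fold threshold. H2-Q7 at 1.05 (adjusted p = 0.000215 by limma) and H2-T22 at 0.45 (adjusted p = 0.00143) passed both thresholds in this fit. Without LysM0 and K2KO1, also chosen after seeing the data, 14.5% of all tested genes were called, H2-Q4 remained called at 0.64 (adjusted p = 0.0156 by limma) and Erap1 at 0.30 was not (adjusted p = 0.0568). H2-Q7 was called there at 0.93 (adjusted p = 0.0204 by limma). With equal summed FPKM H2-Q7 at 1.13 (adjusted p = 0.0306 by limma) and H2-T22 at 0.57 (adjusted p = 0.0287) were called, beside 28.7% of all tested genes. That scaling put the median log2 fold change of all tested genes at 0.18. Each of the 2 genes was called in 1 of the 12 settings and 0 of the 8 omissions of a single library. Bst2, itself part of the list, was called lower in the libraries labelled K2KO with the covariate and without LysM0 and K2KO1. Whether interferon signalling differed between the cultures was not tested.

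Of 6 tested genes for molecules that resemble class I or depend on B2m, Fcgrt fell and Mr1 rose (33.3%, beside 18.4% of all tested genes called in either direction). Fcgrt, which encodes the heavy chain of the neonatal Fc receptor and pairs with B2m, was at 127, 155, 164 and 187 FPKM in LysM0 to LysM3 and at 102, 94.1, 99.2 and 90.0 FPKM in K2KO0 to K2KO3. The groups did not overlap, with all of the lower values in the libraries labelled K2KO, and the log2 fold change was -0.71 ± 0.11 (adjusted p = 0.00902 by limma). Mr1, which presents metabolites to MAIT cells, rose from 1.91 ± 0.169 to 2.63 ± 0.298 FPKM (0.44 ± 0.11, adjusted p = 0.029 by limma). Hfe, a regulator of iron uptake that also binds B2m, was at 33.8 ± 1.80 and 32.1 ± 3.13 FPKM and was not called. Procr, the endothelial protein C receptor, had means of 6.66 and 7.50 FPKM and was not called either (adjusted p = 0.466 by limma). Fcgrt was called in 11 of the 12 settings and 8 of the 8 omissions, and Mr1 in 7 and 2.

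Among 12 tested genes of cross-presentation and endosomal traffic, 3 fell and 1 rose (33.3% called, beside 18.4% of all tested genes), with a median log2 fold change of -0.03. Ifi30, the lysosomal thiol reductase GILT, fell from 233.2 ± 5.84 to 175.1 ± 11.9 FPKM (log2 fold change -0.42 ± 0.07, adjusted p = 0.00902 by limma). Ehd1, which acts in endocytic recycling, fell from 44.3 ± 4.22 to 34.3 ± 1.71 FPKM (-0.37 ± 0.08, adjusted p = 0.0173 by limma). Vamp8, an endosomal SNARE, fell from 280.4 ± 18.4 to 223.8 ± 24.4 FPKM (-0.33 ± 0.09, adjusted p = 0.0329 by limma), while the SNARE gene Snap23 rose from 18.6 ± 1.25 to 24.8 ± 2.56 FPKM (0.40 ± 0.09, adjusted p = 0.0178 by limma). Cybb, the catalytic subunit of the phagocyte oxidase, was at 112.1 ± 2.27 and 114.4 ± 8.35 FPKM. Ifi30 was called in 9 of the 12 settings and 8 of the 8 omissions, Ehd1 in 9 and 6, Snap23 in 9 and 4, and Vamp8 in 8 and 2. The log2 fold change of Vamp8 was -0.14 with quantile normalization and -0.16 with equal summed FPKM, and that of Ifi30 was -0.25 with either. That of Ehd1 was -0.20 with equal summed FPKM and -0.27 with the correction for GC content and length, under which Snap23 was at 0.25, and none of these values was called. Of the receptors that bind class I molecules or restrain macrophages, 4 were tested and 1 fell (25.0%, beside 8.61% called lower among all tested genes). Pirb, an inhibitory receptor for class I, was at 69.2, 79.3, 90.9 and 89.5 FPKM in LysM0 to LysM3 and at 61.7, 69.0, 63.9 and 51.6 FPKM in K2KO0 to K2KO3. Its groups did not overlap, by a narrow margin, and its log2 fold change was -0.42 ± 0.11 (adjusted p = 0.0331 by limma). Pirb was called in 6 of the 12 settings and 3 of the 8 omissions, and its log2 fold change was -0.25 with equal summed FPKM. Lilrb4a, an inhibitory receptor of the same family, was at 77.1, 61.9, 55.6 and 51.1 FPKM in LysM and at 86.4, 95.02, 82.3 and 68.1 FPKM in the libraries labelled K2KO. It had the higher mean there without passing the test (log2 fold change 0.44 ± 0.14, adjusted p = 0.0521 by limma), and was called in 3 of the 12 settings, quantile normalization among them (0.56). Sirpa, the most abundant of these receptor genes, was at 724.5 ± 37.2 and 677.6 ± 45.1 FPKM with overlapping groups (-0.10 ± 0.07, adjusted p = 0.349 by limma). Over all 110 tested pathway genes beside the 10, 14 were called (12.7%, beside 18.4% of all tested genes).

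**Figure D4:**
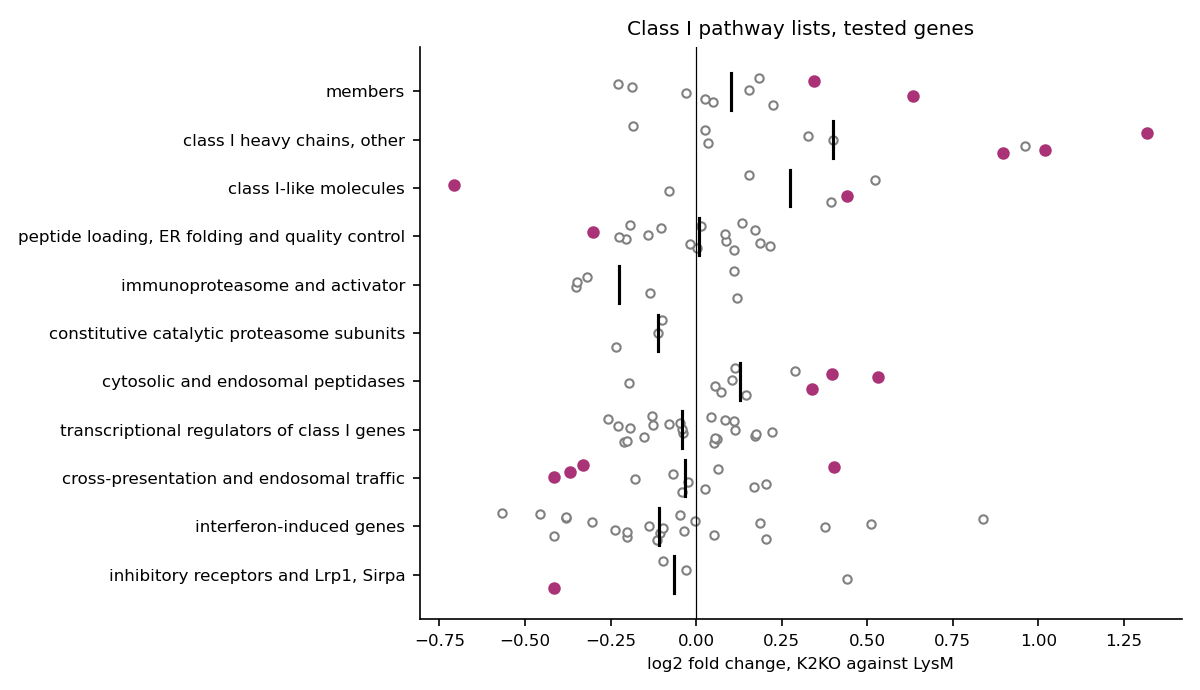
Log2 fold change, libraries labelled K2KO against LysM, of each tested gene of the class I lists (points, filled where called differentially expressed), with the median of each list as a black bar. The 22 interferon-induced genes and the 22 regulators hold no filled point, and the other heavy chains have the highest median at 0.40.

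Markers of other cell types were measured as a check on the cultures. The neutrophil list was the most abundant of them, with a sum of 245.6 ± 55.5 FPKM in LysM and 245.3 ± 59.0 FPKM in the libraries labelled K2KO. S100a9 led it at 131.9 ± 32.5 and 126.5 ± 34.7 FPKM, and 1 of its 7 tested genes was called, beside 18.4% of all tested genes. Camp, which encodes cathelicidin, was at 12.6, 14.8, 11.1 and 16.0 FPKM in LysM0 to LysM3 and at 4.04, 6.77, 4.99 and 9.78 FPKM in K2KO0 to K2KO3, with no overlap (log2 fold change -1.15, adjusted p = 0.0178 by limma). The list as a whole did not follow Camp, since 4 of the 7 tested genes had a log2 fold change above 0 and the median was 0.02. The B cell list summed to 22.97 ± 8.82 and 21.5 ± 6.14 FPKM, of which Ighm, the immunoglobulin mu chain, gave 19.8 and 17.2 FPKM and Cd79b 2.13 and 2.81 FPKM.

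The T cell list summed to 2.55 ± 0.278 FPKM in LysM and 6.23 ± 0.341 FPKM in the libraries labelled K2KO. Its 1 gene over the filter was Cd4, which rose from 1.92 ± 0.30 to 5.15 ± 0.473 FPKM (log2 fold change 1.38, adjusted p = 0.000434 by limma). Means of the other 7 genes of the list were at most 0.15 FPKM in LysM and 0.488 FPKM in the libraries labelled K2KO, where Trbc2 was the highest of them. The dendritic cell list, which matters here because those cells cross-present, summed to 7.34 ± 0.582 and 8.12 ± 1.61 FPKM with Itgax as its most abundant gene. Of its 8 genes, Itgax and Ccr7 were tested and neither was called, beside 18.4% of all tested genes. Ccr7 was at 0.969 ± 0.45 and 1.63 ± 0.622 FPKM. Siglech, at 0.205 ± 0.102 and 0.463 ± 0.171 FPKM, was the 1 gene of the 8 whose groups did not overlap (nor did they for 23.1% of all tested genes). Siglech, Flt3, Clec9a and Cd209a had the higher mean in the libraries labelled K2KO. Itgax (5.30 and 4.52 FPKM) and Zbtb46 (0.0816 and 0.0548 FPKM) had the lower mean there, and Xcr1 was at 0.0261 and 0.026 FPKM. The NK cell list, led by Nkg7, summed to 0.396 and 0.741 FPKM, the fibroblast list, led by Dcn, to 0.637 and 1.76 FPKM, the endothelial list, led by Kdr, to 3.37 and 4.03 FPKM, and the erythroid list, led by Hba-a1, to 0.758 and 1.06 FPKM.

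The macrophage list, with Cd68 as its most abundant gene, summed to 4048, 4141, 3927 and 4053 FPKM in LysM and to 3733, 3683, 3826 and 3814 FPKM in the libraries labelled K2KO, so the groups did not overlap (nor did they for 23.1% of single tested genes). Cd14, the lipopolysaccharide co-receptor, was at 999, 1099, 969 and 1046 FPKM in LysM and at 830.2, 664, 892 and 930.2 FPKM in the libraries labelled K2KO, with no overlap, and did not pass the test (log2 fold change -0.32 ± 0.11, adjusted p = 0.063 by limma). Of its 8 genes 2 were called, in opposite directions, beside 18.4% of all tested genes. Mertk, an efferocytosis receptor, was at 16.7, 13.5, 13.0 and 13.7 FPKM in LysM and at 19.8, 19.2, 17.7 and 16.5 FPKM in the libraries labelled K2KO, so it rose with groups that overlapped (log2 fold change 0.36, adjusted p = 0.0285 by limma). Lyz2, where Cre is inserted, fell from 18.6 ± 2.88 to 13.2 ± 1.73 FPKM (-0.49, adjusted p = 0.026 by limma). The part of these marker differences in the class I values was not tested.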

How the data were processed

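Total RNA of BMDMs from 4 LysM and 4 K2KO mice was sequenced with a stranded Illumina kit. The authors deposited 1 table of FPKM for 23761 genes and 8 libraries, with no pooling, computed with Cufflinks on mm10. The methods name TopHat2 as the aligner, whereas the submitters' processing notes name STAR, Cufflinks and Cuffdiff. Versions, annotation and any filter on genes are not given in the sources used here. FPKM carry no read counts, so the depth is unknown and no counting interval is given. The summed FPKM ranged from 497252.8 to 551608.1 in LysM and from 448235.2 to 501964.5 in the libraries labelled K2KO, and steps among low values put the relative depth at about 0.88 to 1.343. Positions and transcripts came from GENCODE M21 (23645 genes matched).

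FPKM were compared as log2(FPKM + 0.1) for genes with a mean of at least 1, with limma 3.58.1 in R 4.3.3 (moderated with an intensity trend and without covariates). A fold change on this scale understates that of low genes. Thresholds were those of the study. Replicates are mice by the study's methods. The 10 genes and all lists were chosen with earlier results of these data known. By the rule for named genes, the text gives the 10 genes, Klf2, the called genes and the 3 most abundant genes of each pathway list, and the most abundant gene of each marker list. Genes named outside that rule (H2-T10, H2-K2, H2-Bl, Pdia3, Psmb9 and Zbtb22 as neighbours of Tap1 and Tapbp, Csf1r, Adgre1, Lyz2, Mertk, Cd14, Camp, Cd79b, Trbc2, Ccr7, Siglech, Flt3, Clec9a, Cd209a, Zbtb46 and Xcr1) were chosen after their values were seen.

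Alternatives were another pseudocount (1 or 0.01), another filter (0.1 or none), quantile, upper-quartile or equal-sum scaling, no intensity trend, ordinary least squares, a correction for GC content and length (local regression, span 0.3), a replicate block with and without it, no fold threshold, and each library left out. The interferon covariate, the omission of LysM0 with K2KO1, and the motif GAANNGAAA were added after seeing the data. Protein sequences were not used here.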

Additional observations from a re-analysis of the deposited data

Results flagged for a closer look

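A single library stood apart from the other 3 of its group in 6 of 102 groups of 4 examined for the named genes, where chance alone gives about 1 in 20, or 5.1 groups. Rtp4 and Oasl2, both interferon-induced, stood low in K2KO1, at 114 FPKM against 202 to 213 FPKM and at 79.8 FPKM against 137 to 144 FPKM in the other libraries labelled K2KO. In K2KO3, the peptidase gene Lnpep was at 2.06 FPKM against 2.88 to 3 FPKM, Snap23 at 21 FPKM against 25.7 to 26.5 FPKM, and Cybb at 102 FPKM against 117 to 120 FPKM. The chaperone gene Bcap31 was at 146 FPKM in K2KO0 against 170 to 172 FPKM. None of the 10 class I presentation genes stood apart in this way in either group. The causes were not tested.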

How the results depend on the processing

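Of the 10 class I presentation genes, H2-Q4 was called in 10 of 12 settings with all libraries and Erap1 in 10 of 12. The number called was 1 with no filter on low values (1090 calls over all genes, 6 over the other pathway genes), 5 with quantile normalization (1553 over all genes and 9 over the other pathway genes), 1 by ordinary least squares (746 and 3), 1 with the GC content and length correction (1098 and 7) and 1 without LysM0 and K2KO1. With equal summed FPKM 3 of the 10 were called, and 3135 over all genes and 25 over the other pathway genes, but this scaling put the median log2 fold change of all genes at 0.18, against 0.01, and 89% of the calls higher, against 53.3% in the reported fit. With the interferon covariate 29 other pathway genes were called, and 2421 over all genes (22.2%). Leaving out 1 library gave 543 to 2863 calls over all genes, 0 to 2 of the 10 and 2 to 24 of the other pathway genes, with none of the 10 called without K2KO0 or without K2KO2. The count over all genes was 753 without LysM1, 1111 without LysM2, 543 without LysM3, 819 without K2KO0, 823 without K2KO1 and 670.0 without K2KO2, against 2014 with all libraries. The summed heavy chains had a log2 ratio of -0.019 to 0.14 over those omissions and 0.33 with quantile normalization. The depth is unknown, so how far it limits the low genes could not be told.

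The numbers that end the column names were also used as a replicate block. Deviations of same-numbered libraries from their group means correlated at -0.07, 0.02, 0.073 and -0.057, and the highest value, 0.184, joined LysM0 with K2KO1. A pairing by number was not seen in these values. Whether same-numbered libraries shared a culture or a preparation is not given in the sources used here. The replicate block gave 2057 calls over all genes, 2 of the 10 and 16 of the other pathway genes. Together with the GC content and length correction the block gave 868, 1 and 3.

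Some log2 fold changes near 0 changed sign, none of them of a called gene, and the cause was not tested. With quantile normalization these were H2-T23 at 0.18, Bcap31 at 0.013, Hspa5 at 0.046, Psmb6 at 0.067, Psmb7 at 0.029, Irf7 at 0.058, Irf8 at 0.062, Rtp4 at 0.048, Oasl2 at 0.13 and Sirpa at 0.16. With equal summed FPKM they were H2-T23 at 0.14, Hfe at 0.089, Bcap31 at 0.026, Hspa5 at 0.063, Psmb6 at 0.055, Psmb7 at 0.069, Irf7 at 0.043, Irf8 at 0.088, Rtp4 at 0.029, Oasl2 at 0.13 and Sirpa at 0.07. That scaling moved all genes alike, to a median log2 fold change of 0.18, so the sign changes under it are not particular to these genes. Upper-quartile scaling and the omission of LysM0 with K2KO1 both put Calr at -0.017. With the GC content and length correction, alone or with the replicate block, H2-T23 was at 0.037, Psmb6 at 0.002, Npepps at -0.008 and Cybb at -0.16. The interferon covariate put H2-T23 at 0.009, Calr at -0.011 and Oasl2 at 0.021. Over the omissions of 1 library, Calr ranged from -0.05 to 0.063, H2-D1 from -0.03 to 0.067, H2-K1 from -0.072 to 0.17, H2-T23 from -0.16 to 0.10, Irf7 from -0.35 to 0.13, Oasl2 from -0.22 to 0.17 and Rtp4 from -0.33 to 0.078.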
